A study of Mus musculus with 12 samples.

Results

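The Cyp2 genes encode the largest family of cytochrome P450 enzymes in mouse liver. Every gene of the deposited expression table whose symbol starts with Cyp2, followed by a subfamily letter and a digit, was taken, which gave 48 members among 25676 genes. The rule read the symbol alone. The members fell into 13 subfamilies, with 4 genes in *Cyp2a*, 5 in *Cyp2b*, 15 in *Cyp2c*, 8 each in *Cyp2d* and *Cyp2j*, and 1 each in *Cyp2e*, *Cyp2f*, *Cyp2g*, *Cyp2r*, *Cyp2s*, *Cyp2t*, *Cyp2u* and *Cyp2w*. P450 enzymes are haem proteins of the endoplasmic reticulum that insert an oxygen atom into their substrate with electrons passed on by P450 oxidoreductase (*Por*) and cytochrome b5. In hepatocytes the Cyp2 enzymes oxidise drugs, solvents, steroids, bile acids and polyunsaturated fatty acids. Many of their genes are known to be transcribed mainly near the central vein of the lobule, and many mouse members are known to be strongly male- or female-biased under the control of the sex-dependent rhythm of growth hormone secretion.

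The livers came from C57BL/6 mice that were 3 to 4 months old. Cre recombinase under the *Foxa3* promoter was used to remove *Yap1*, which encodes a transcriptional co-activator of the Hippo pathway, and these mice are called KO here, while mice labelled WT were the controls. *Foxa3* is active in the embryonic endoderm that gives rise to hepatocytes and bile duct cells, so both lineages can carry the deletion. The labels do not say whether the WT mice carried Cre or floxed alleles. There were 4 groups of 3 mice, namely WT males, KO males, WT females and KO females, and each mouse gave 1 RNA sequencing library of whole liver. Values within a group are listed in the order of replicates 1, 2 and 3, a number that only names a mouse.

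Expression was given as TPM, the share of transcripts scaled to the same sum in every library and corrected for gene length, so that levels of different members can be set side by side. Tests used limma on log2(TPM + 1) over the 12278 genes with a mean of at least 0.5 TPM, and a call means a Benjamini-Hochberg adjusted p under 0.05 over all of them. Read depth is not recorded in the table. Steps in the low values put 1 read on a gene of 1 kb at 0.0709 to 0.114 TPM, depending on the library, and 14321 to 15482 genes were above 0. *Yap1* itself was between 23.0 and 34.9 TPM in the 6 WT livers and between 0.994 and 3.11 TPM in the 6 KO livers. The 6 hepatocyte markers found in the table summed to 82417 to 109666 TPM in WT and 63185 to 89819 TPM in KO, most of it *Alb* (means 70629 and 58427 TPM), which was called lower after the rescaling described below but not before. *Ttr* (7453 and 3537 TPM) and *Serpina1a* (4973 and 3908 TPM) were called lower, and *Apoa1*, *Cps1* and *Ass1*, with means somewhat higher in KO, were not called. Some markers of other cells differed by genotype as well. The 5 biliary markers summed to 27.7 to 58.5 TPM in WT and 251.5 to 712.8 TPM in KO, a sum carried by *Spp1* (means 33.8 and 492 TPM) and, at a lower level, *Sox9* (3.20 and 10.96 TPM). *Epcam* was called lower (0.940 and 0.515 TPM), *Krt19* was not called (1.38 and 1.24 TPM) and *Krt7*, under the filter, was not tested (0.229 and 0.255 TPM). The 7 stellate cell and fibroblast markers summed to 58.7 to 166.3 TPM in WT and 173.7 to 418.8 TPM in KO, with all but *Lrat* called higher, and the 6 macrophage markers to 39.4 to 126.0 and 178.9 to 339.4 TPM, all 6 called higher. After rescaling, the calls of *Dcn*, *Des* and the macrophage marker *Timd4* were lost and *Lrat* was called lower. The leukocyte marker *Ptprc* was called higher (2.08 and 7.34 TPM), with every KO liver above every WT liver, and so were the neutrophil markers *S100a8* and *S100a9*. Among the endothelial markers *Cdh5* was called higher (6.49 and 13.8 TPM) and *Kdr* lower (8.72 and 5.89 TPM). Rescaling removed the calls of *S100a8*, *S100a9* and *Cdh5*. The part of these other cells in the Cyp2 differences was not tested. In bulk tissue, fewer hepatocytes and less RNA per hepatocyte cannot be told apart.

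Of the 48 members, 34 passed the filter on low values and were tested. Another 9 were listed at 0 in all 12 livers: *Cyp2b19*, *Cyp2b23*, *Cyp2c66*, *Cyp2d34*, *Cyp2j7*, *Cyp2j11*, *Cyp2j12*, *Cyp2j13* and *Cyp2w1*. The remaining 5, *Cyp2c65*, *Cyp2d11*, *Cyp2j8*, *Cyp2s1* and *Cyp2t4*, were above 0 in at least 1 liver but had a mean below 0.5 TPM and were not tested. For the 9 genes at 0, 3 reads would have given 0.0454 to 0.226 TPM, depending on gene and library, so levels below that could not be seen. *Cyp2s1*, best known from extrahepatic epithelia, was at most 0.961 TPM in any liver, *Cyp2d11* at most 0.666 TPM, *Cyp2j8* at most 0.460 TPM, *Cyp2t4* at most 0.114 TPM and *Cyp2c65* at most 0.110 TPM. Most members lie in 4 gene clusters, *Cyp2a*, *Cyp2b*, *Cyp2f2* and *Cyp2g1* together on chromosome 7, *Cyp2c* on chromosome 19, *Cyp2d* on chromosome 15 and *Cyp2j* on chromosome 4.

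The family as a whole made up less of the KO transcriptome. Its summed level was 16841, 14435 and 17054 TPM in WT males, 7619, 8218 and 8526 TPM in KO males, 23579, 24842 and 22103 TPM in WT females, and 6824, 9576 and 8417 TPM in KO females. All KO livers were below all WT livers, and WT females were above WT males, while the KO sexes overlapped. As a share of all TPM the family held 1.98 ± 0.424% in the 6 WT livers and 0.820 ± 0.0925% in the 6 KO livers (mean ± SD), so the mean was 2.42-fold lower. The sums have no test, since a sum over chosen members is a description.

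The subfamilies did not move alike. *Cyp2f* (the gene *Cyp2f2* alone) had a mean of 1482 ± 178 TPM in WT males and 126 ± 33.1 TPM in KO males, and of 901 ± 82.6 and 94.00 ± 30.1 TPM in the females (SD, n = 3). *Cyp2e* (*Cyp2e1* alone) was the most abundant subfamily in WT, with 5611 ± 737 TPM in males and 7562 ± 494 TPM in females, against 1509.6 ± 495 and 1367 ± 194 TPM in KO. *Cyp2c*, the largest subfamily, went from 3695 ± 773 to 2114 ± 91.7 TPM in males and from 6899.7 ± 324 to 2090.1 ± 274 TPM in females. In each of these 3 the KO values lay below the WT values of the same sex. The means of *Cyp2a* and *Cyp2b* went opposite ways in the sexes. The *Cyp2a* sum was 1134 ± 321 TPM in WT males and 1775 ± 202 TPM in KO males, but 4479 ± 1017 and 2212 ± 779 TPM in WT and KO females. The *Cyp2b* sum was 7.504 ± 8.96 and 16.00 ± 5.17 TPM in males, where the groups overlapped, and 808 ± 24.2 and 63.4 ± 9.51 TPM in females, where they did not. *Cyp2d* was 3677 ± 134 and 2176 ± 226 TPM in males and 2379 ± 36.5 and 2116 ± 269 TPM in females. *Cyp2j* went from 464 ± 48.7 TPM in WT to 351 ± 52.2 TPM in KO (SD, n = 6). The make-up of the family differed too: *Cyp2e1* gave 33.3% of the summed Cyp2 level in WT and 17.5% in KO, and *Cyp2d* gave 15.3% in WT and 26.2% in KO.

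**Figure D1:**
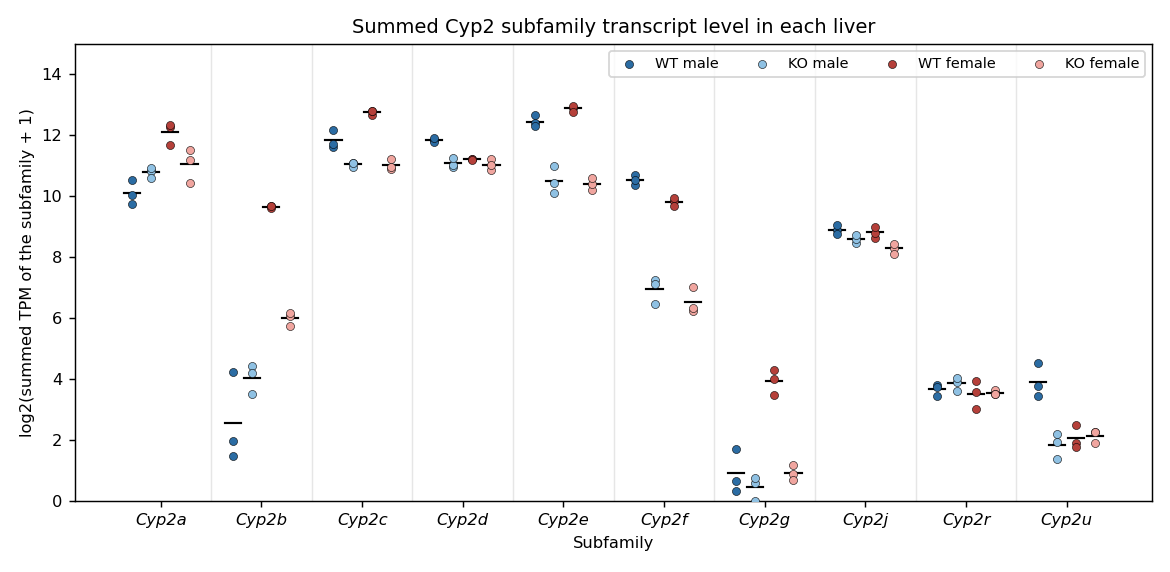
Summed level of 10 Cyp2 subfamilies in each of the 12 livers, as log2 of the summed TPM plus 1 on the vertical axis, with points for livers and short lines for group means. The KO points lie below the WT points of the same sex in Cyp2c, Cyp2e and Cyp2f, whereas in Cyp2a the KO males lie above the WT males and the KO females below the WT females.

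Genotypes were first set against each other over the sexes, to find members that differed by genotype in general. Of the 34 tested members, 3 were called higher and 16 lower in KO, beside 50.1% and 4.82% of all tested genes. A further 15 members were not called. All 6 KO values lay above all 6 WT values in 1 member and below them in 8, beside 28.7% and 1.88% of all genes. The median log2 difference over the members was -0.38, and over all tested genes it was 0.35, a shift that most genes shared. When that shift was removed by median-of-ratios rescaling, the median over all genes was -0.03 and over the members -0.82, with 2 members called higher and 21 lower, beside 21.3% and 18.0% of all genes. The values below are on the deposited scale unless rescaling is named.

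*Cyp2e1* and *Cyp2f2* had large falls at high levels. *Cyp2e1* (ENSMUSG00000025479, chromosome 7, 140763739 to 140774987 on the plus strand of GRCm38) oxidises ethanol, acetone and other small molecules and turns paracetamol into its reactive quinone imine, and it is a textbook pericentral gene. It was 5379, 5018 and 6437 TPM in WT males and 1099, 2059 and 1371 TPM in KO males, and 7618, 8025 and 7042 TPM in WT females and 1177, 1359 and 1565 TPM in KO females. All KO livers were far below all WT livers, and the 4.58-fold lower mean corresponded to a log2 difference of -2.20 (SE 0.17, limma adjusted p = 2.35e-07). Within the sexes the differences were -1.94 and -2.47.

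*Cyp2f2* (ENSMUSG00000052974, chromosome 7, 27119909 to 27133660 on the plus strand) activates naphthalene and is known as a periportal gene in mouse liver. Its values were 1664, 1307 and 1473 TPM in WT males, 149.8, 88.05 and 139 TPM in KO males, 911, 814 and 979 TPM in WT females and 129, 74.2 and 79.2 TPM in KO females. The genotypes did not overlap, and the mean was 10.8-fold lower in KO, a log2 difference of -3.43 (SE 0.16, limma adjusted p = 3.45e-09). Males differed by -3.58 and females by -3.29. A gene known from the pericentral zone and a gene known from the periportal zone were both lower in every KO liver. *Cyp2d40*, a member of the chromosome 15 cluster, was 118, 99.3 and 89.4 TPM in WT males and 25.2, 31.3 and 18.1 TPM in KO males, and 82.2, 75.6 and 62.1 and 23.8, 20.6 and 25.8 TPM in WT and KO females. It was likewise lower in all KO livers, by a log2 difference of -1.81 (limma adjusted p = 4.52e-07).

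Of the 13 tested *Cyp2c* genes, 8 were called lower and 1 higher over both sexes, against the background of 4.82% and 50.1% of all tested genes given above. These enzymes include the epoxygenases that turn arachidonic and linoleic acid into signalling epoxides. *Cyp2c29*, *Cyp2c37*, *Cyp2c50* and *Cyp2c54* belong to that group. *Cyp2c37* (ENSMUSG00000042248, chromosome 19, 39992424 to 40012243 on the plus strand) was 458, 139 and 205 TPM in WT males, 63.9, 51.1 and 52.1 TPM in KO males, 1072, 824 and 740.2 TPM in WT females and 72.99, 81.1 and 73.5 TPM in KO females. Every KO liver was below every WT liver, and the WT females were above the WT males. The log2 difference was -2.78 (SE 0.30, limma adjusted p = 5.29e-06), with -2.07 in males, whose WT replicate 1 was the highest, and -3.50 in females.

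*Cyp2c54* and *Cyp2c50* were lower in KO by log2 differences of -2.68 and -1.79 (limma adjusted p = 2.19e-06 and 1.74e-07). Their levels in WT males, 329, 183 and 239 TPM for *Cyp2c54* and 961, 769 and 734 TPM for *Cyp2c50*, stood against 66.04, 60.7 and 65.02 and 324, 264 and 288 TPM in KO males. In females, *Cyp2c54* went from 427, 441 and 474 to 54.3, 32.2 and 36.02 TPM and *Cyp2c50* from 878, 853 and 1013 to 209.7, 221 and 204 TPM, with no overlap of the genotypes in either. The coding sequences of *Cyp2c37*, *Cyp2c50* and *Cyp2c54* are 95.1 to 96.1% identical, so reads may have been shared among them. Summed and fitted as a single feature, the 3 genes were 1749, 1090.2 and 1178 TPM in WT males, 454, 376 and 405 TPM in KO males, 2377, 2117 and 2226 TPM in WT females and 337, 334 and 313 TPM in KO females. The sum was lower in KO by a log2 difference of -2.22 (limma adjusted p = 8.26e-07), so the fall was also called with the reads of the 3 genes pooled. The interaction of the sum missed the threshold (1.10, limma adjusted p = 0.0596), while that of *Cyp2c54* alone was called (1.54, limma adjusted p = 0.031).

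*Cyp2c29* had a smaller fall. It was 901, 575 and 687 TPM in WT males, 301, 269 and 219.9 TPM in KO males, 591, 654 and 700.3 TPM in WT females and 300.1, 467 and 327 TPM in KO females, a log2 difference of -1.14 (SE 0.16, limma adjusted p = 6.28e-05). Every KO value was below every WT value. *Cyp2c67* was 459, 234 and 311 TPM in WT males and 66.3, 99.7 and 85.4 TPM in KO males, and 157, 180.5 and 177 and 58.6, 92.6 and 65.1 TPM in WT and KO females, a log2 difference of -1.61 (limma adjusted p = 1.36e-05), again without overlap. Together with *Cyp2e1*, *Cyp2f2* and *Cyp2d40*, these *Cyp2c* genes made up the 8 members called lower in both sexes taken separately, beside 1.94% of all tested genes.

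*Cyp2c55* (ENSMUSG00000025002, chromosome 19, 39007019 to 39042693 on the plus strand) moved the other way. The enzyme hydroxylates arachidonic acid and is known from the intestine and as a gene induced by xenobiotic receptors. It was 11.6, 6.29 and 7.56 TPM in WT males and 33.7, 27.00 and 47.5 TPM in KO males, and 1.17, 2.27 and 5.80 TPM in WT females and 59.1, 60.3 and 47.3 TPM in KO females. All KO livers were above all WT livers, and the mean rose 7.94-fold, a log2 difference of 2.96 (SE 0.36, limma adjusted p = 1.82e-05). The difference was 1.97 in males and 3.95 in females, and the test of the difference between the sexes missed the threshold (-1.98, limma adjusted p = 0.129). *Cyp2d12* was also called higher, by 0.58 (limma adjusted p = 0.00256), but at a level of at most 1.35 TPM in any liver, where a few reads decide a value. Its calls within males (0.61, limma adjusted p = 0.0238) and within females (0.56, limma adjusted p = 0.0449) were lost after rescaling, and also without WT male replicate 2 (limma adjusted p = 0.0787 in males) or WT female replicate 1 (limma adjusted p = 0.115 in females), among other libraries. *Cyp2j6* was called higher by 0.33 (limma adjusted p = 0.0157) on the deposited scale only, since rescaling turned it to -0.12. The 2 members called higher in both sexes were thus *Cyp2c55* and *Cyp2d12*, beside 25.1% of all tested genes.

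**Figure D2:**
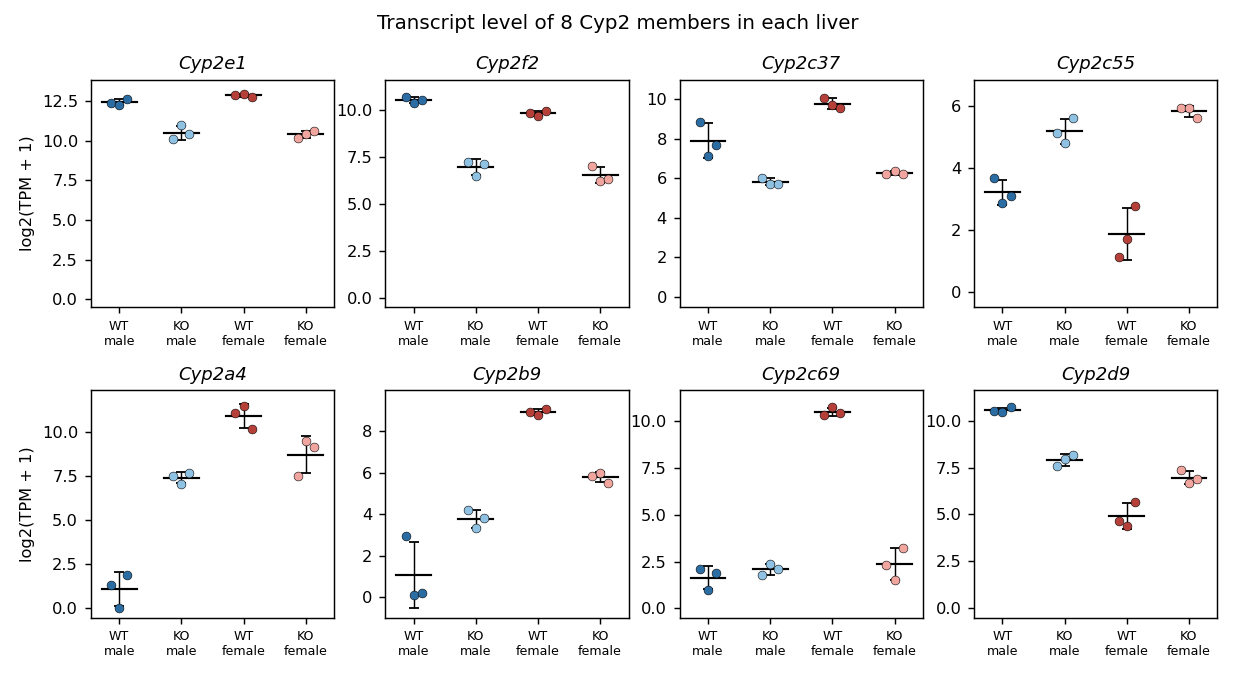
Levels of 8 members in the 12 livers, as log2(TPM + 1), with points for livers, horizontal lines for group means and bars for the SD of 3 livers. Cyp2e1, Cyp2f2 and Cyp2c37 are low and Cyp2c55 is high in all KO livers, while the KO values of Cyp2a4, Cyp2b9 and Cyp2d9 lie between those of WT males and WT females.

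Several abundant members were not called by genotype on the deposited scale. *Cyp2c70*, which makes the muricholic acids specific to mouse bile, was 844, 928 and 561 TPM in WT males, 805, 713 and 875 TPM in KO males, 549, 576 and 688 TPM in WT females and 633, 811 and 638 TPM in KO females. Its groups overlapped, and the log2 difference was 0.13 (limma adjusted p = 0.429), turning to -0.32 after rescaling without reaching the threshold. *Cyp2a12*, which rehydroxylates bile acids, had means of 586 ± 53.9 and 564 ± 138 TPM in WT and KO males and 718 ± 65.2 and 616 ± 52.4 TPM in WT and KO females (SD, n = 3). Its log2 difference was -0.15 (limma adjusted p = 0.317) as deposited and -0.61 and called after rescaling.

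*Cyp2d10*, *Cyp2d22*, *Cyp2d26* and *Cyp2c23* behaved like *Cyp2a12*, with log2 differences of -0.18, -0.23, -0.14 and -0.14 that were not called as deposited and were called lower after rescaling. *Cyp2d26*, the most abundant *Cyp2d* gene over all livers, ranged from 916 to 1279.7 TPM in WT and from 825 to 1205 TPM in KO. *Cyp2r1*, a vitamin D 25-hydroxylase, was 7.07 to 14.3 TPM in WT and 10.2 to 15.5 TPM in KO, with a log2 difference of 0.12 (limma adjusted p = 0.51) that turned to -0.30 after rescaling, not called on either scale. *Cyp2j9* had a difference of 0.11 (limma adjusted p = 0.687). *Cyp2j5*, an arachidonic acid epoxygenase and the main *Cyp2j* gene here, was 423, 475 and 381 TPM in WT males, 297, 329 and 361 TPM in KO males, 355, 408 and 464 TPM in WT females and 262, 293 and 223 TPM in KO females. The KO values were below the WT values of the same sex, and the log2 difference was -0.51 (SE 0.11, limma adjusted p = 0.00194).

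The genotype difference was next taken within each sex. In males 9 members were called higher and 10 lower, beside 43.3% and 2.81% of all tested genes, and in females 4 were called higher and 20 lower, beside 29.1% and 4.68%. Rescaling changed the split to 5 higher and 15 lower in males, beside 14.1% and 9.84% of all genes, and to 2 higher and 24 lower in females, beside 15.4% and 10.6%. The median log2 difference of the members was -0.04 in males and -1.26 in females, beside 0.44 and 0.27 over all genes. Without WT male replicate 2, 5 members were called higher in males, and without WT female replicate 1 or 2, or KO female replicate 1 or 3, 2 were called higher in females. The animal labels of WT female replicate 3 and KO female replicate 1 come from an earlier number series, with 1 library for each genotype. With a covariate for that series 3 members were called higher and 20 lower in females.

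Sex differences within each genotype were then compared. Of the 34 members, 14 were called higher in WT females and 4 higher in WT males, beside 4.60% and 1.14% of all tested genes, and 12 and 5 after rescaling, beside 2.30% and 2.02%. The calls lost by rescaling were those of *Cyp2b10* and *Cyp2c54*. The 4 higher in WT males were *Cyp2d9* (5.65), *Cyp2u1* (1.85), *Cyp2c55* (1.34) and *Cyp2c67* (0.91), and only 2 were called without WT male replicate 1, WT female replicate 1 or 2, KO male replicate 1 or 2, or KO female replicate 3. In KO, 1 member was called between the sexes, higher in females (0.0244% of all genes), and 0 were called higher in males (0.0570%). At an unadjusted p under 0.05, 9 members differed between the KO sexes in the limma fit, beside 655 of all 12278 tested genes. The interaction of genotype and sex, which is the male genotype difference minus the female one, tests whether the genotype difference depended on sex. It called 10 members with a positive value and 2 with a negative value, beside 0.586% and 0.326% of all tested genes. The negative calls dropped to 1 without any of 7 single libraries, WT male replicate 2 and KO male replicate 1 among them.

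Called genotype differences were opposite in the sexes for 7 members. *Cyp2a4*, *Cyp2a22*, *Cyp2b9*, *Cyp2b13*, *Cyp2c38* and *Cyp2c39* rose in KO males and fell in KO females, as 0.171% of all tested genes did, and *Cyp2d9* did the reverse, as 0.0977% did. After rescaling the male rises of *Cyp2b13* and *Cyp2c38* were no longer called (0.47 and 0.49). The comparisons within the sexes, between the sexes and the interaction share the same 12 livers, so they are views of the same values and not separate evidence.

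**Figure D3:**
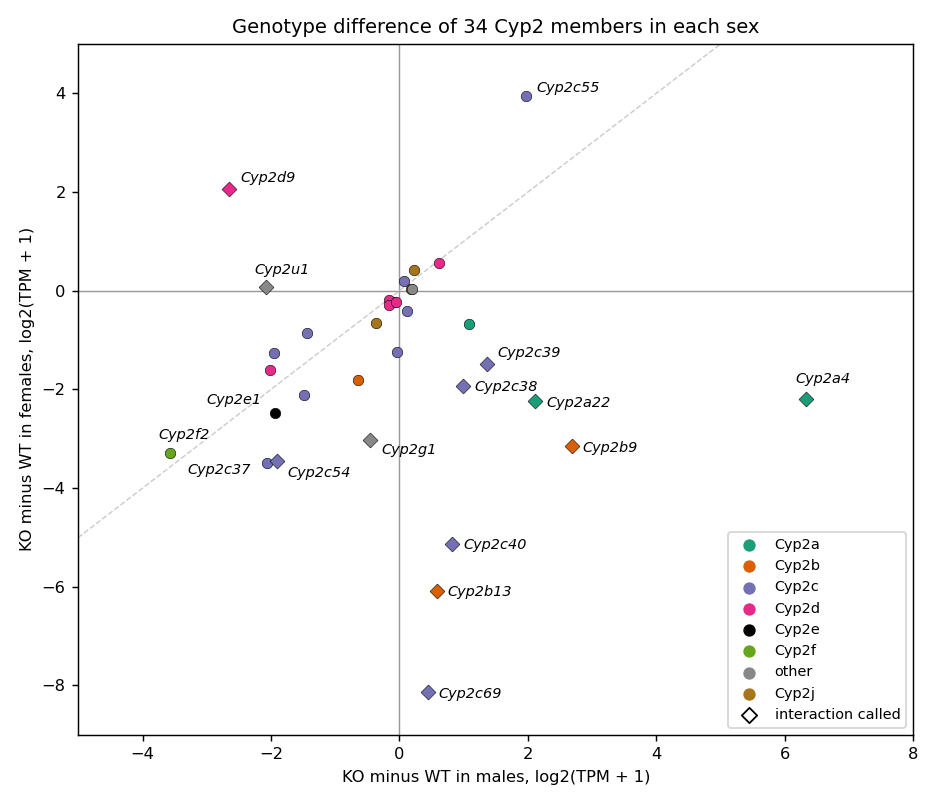
KO minus WT difference of the 34 tested members in males (horizontal axis) and females (vertical axis), both on the log2(TPM + 1) scale, with a dashed line of equal change and diamonds for members called in the interaction. Members low in KO in both sexes sit at the lower left, Cyp2c55 at the upper right, the 6 members that rose in males and fell in females at the lower right and Cyp2d9 at the upper left.

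*Cyp2a4* and *Cyp2a5* lie in the same cluster on chromosome 7, with other Cyp2 genes between them, and their coding sequences are 98.4% identical. *Cyp2a4* (ENSMUSG00000074254, chromosome 7, 26307169 to 26315088 on the plus strand) is a testosterone 15-alpha-hydroxylase known to be female-biased, and *Cyp2a5* (ENSMUSG00000005547, chromosome 7, 26835305 to 26843548 on the plus strand) is the coumarin 7-hydroxylase. *Cyp2a4* was 1.47, 0 and 2.60 TPM in WT males, 178, 130.3 and 199 TPM in KO males, 2161, 2809.5 and 1130.0 TPM in WT females and 179, 709 and 559.8 TPM in KO females. The KO males were above the WT males and the KO females below the WT females, by log2 differences of 6.34 and -2.20 (limma adjusted p = 2.23e-06 and 0.00685); with a pseudocount of 0.1 the female difference was no longer called (limma adjusted p = 0.0949). The sex difference in WT was -9.84, male minus female, with an interaction of 8.53 (SE 0.75, limma adjusted p = 3.05e-05). In both genotypes the female of the early number series was the lowest female, with 1130.0 TPM in WT and 179 TPM in KO.

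*Cyp2a5* was 407, 307 and 921 TPM in WT males, 939, 1011 and 1154 TPM in KO males, 1954, 1670.3 and 1348 TPM in WT females and 621, 1524 and 1156 TPM in KO females. The KO males were above the WT males, of which replicate 3 stood apart from the others, and the females overlapped. The male difference of 1.08 (limma adjusted p = 0.0318) was lost without any male other than WT male replicate 3, for example without WT male replicate 2 (0.75, limma adjusted p = 0.133) and after rescaling (0.52). The interaction missed the threshold (1.75, limma adjusted p = 0.268). Summed as 1 feature, *Cyp2a4* and *Cyp2a5* were 409, 307 and 924 TPM in WT males, 1117, 1141 and 1353 TPM in KO males, 4114, 4479.8 and 2478 TPM in WT females and 800.0, 2233 and 1715 TPM in KO females. The sum rose in males by 1.30 (limma adjusted p = 0.0225) and fell in females by 1.30 on the log2 scale (limma adjusted p = 0.0282), and its interaction of 2.59 missed the threshold (limma adjusted p = 0.0688).

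The sequences just upstream of these genes are shown because both genes were called higher in WT females, with sex differences of -9.84 and -1.75, while their upstream sequences hardly differ. Whether these sex differences are unequal was not tested, and that of *Cyp2a5* (limma adjusted p = 0.0174) was lost without WT male replicate 1 or 2 or WT female replicate 1 or 2 (limma adjusted p from 0.0645 to 0.0795). Each is the 250 bases before the gene's start in RefSeq on GRCm38.p6, written 5′ to 3′ on the gene's own strand, and the windows of *Cyp2a4* and *Cyp2a5* were 97.6% identical in a global alignment. Capitals mark matches to TATAAA, to TTGCNNAA (a pattern of C/EBP factors) and to CAAAGTCCA (a pattern of HNF4).
Cyp2a4, chr7:26306942-26307191, plus strand: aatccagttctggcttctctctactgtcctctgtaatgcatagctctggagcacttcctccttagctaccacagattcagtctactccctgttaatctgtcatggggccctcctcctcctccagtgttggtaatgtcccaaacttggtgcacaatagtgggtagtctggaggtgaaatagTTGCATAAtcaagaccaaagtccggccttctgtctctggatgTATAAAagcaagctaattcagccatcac
Cyp2a5, chr7:26835089-26835338, plus strand: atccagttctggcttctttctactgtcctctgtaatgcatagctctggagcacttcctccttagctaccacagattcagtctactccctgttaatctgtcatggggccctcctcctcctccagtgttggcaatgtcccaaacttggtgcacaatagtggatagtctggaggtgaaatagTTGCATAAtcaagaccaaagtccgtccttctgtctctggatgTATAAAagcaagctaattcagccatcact
Both windows held TTGCATAA and, nearer the start, TATAAA.

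*Cyp2b9* (ENSMUSG00000040660, chromosome 7, 26173411 to 26210661 on the plus strand) and *Cyp2b13* (ENSMUSG00000040583, chromosome 7, 26061497 to 26096197 on the plus strand) are female-biased relatives of the phenobarbital-inducible *Cyp2b10*, with coding sequences 92.7% identical to each other. *Cyp2b9* was 6.61, 0.0869 and 0.163 TPM in WT males, 17.2, 8.96 and 13.1 TPM in KO males, 486, 444 and 532 TPM in WT females and 56.3, 62.5 and 44.5 TPM in KO females. Each KO male exceeded each WT male, of which replicate 1 was the highest, and each KO female was below each WT female. The log2 differences were 2.69 (limma adjusted p = 0.00214) in males and -3.15 (limma adjusted p = 0.000886) in females, with an interaction of 5.84 (SE 0.78, limma adjusted p = 0.0016).

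*Cyp2b13* was 0.0486, 0 and 0.245 TPM in WT males, 0.737, 0.457 and 0.734 TPM in KO males, 314, 324 and 249 TPM in WT females and 3.90, 4.31 and 2.15 TPM in KO females. WT males were at or near the level of a few reads, and the mean of KO females was 85.7-fold below that of WT females. The difference in females was -6.09 (SE 0.21, limma adjusted p = 6.41e-10). The rise in males, 0.58 (limma adjusted p = 0.0346), was lost without WT male replicate 1 or 2 or KO male replicate 1 or 3 (limma adjusted p from 0.0821 to 0.0984). The call over both sexes, -2.75 (limma adjusted p = 0.022), was lost without any WT female or without KO female replicate 1 or 3 (limma adjusted p from 0.0523 to 0.0536), and with a pseudocount of 0.1 (-2.17, limma adjusted p = 0.142). *Cyp2b13* was also the member still called between the sexes in KO (-1.41, limma adjusted p = 0.0208), a call lost without either of KO female replicates 1 and 2 or any KO male (limma adjusted p from 0.0717 to 0.142). *Cyp2b10*, the classic target of the constitutive androstane receptor *Nr1i3*, was 11.2, 2.85 and 1.34 TPM in WT males, 2.41, 0.882 and 3.43 TPM in KO males, 17.8, 12.2 and 43.6 TPM in WT females and 6.14, 4.22 and 6.07 TPM in KO females. It was called lower over both sexes (-1.22, limma adjusted p = 0.0223), but not without WT male replicate 1 (-0.99, limma adjusted p = 0.0537) or without WT female replicate 3 (-0.94, limma adjusted p = 0.0513), the highest liver of each WT sex.

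The upstream windows of *Cyp2b9* and *Cyp2b13* are given because these genes shared their sex bias and their direction in KO in both sexes. They were 99.2% identical, the closest pair among the 40 members found in the RefSeq promoter table.
Cyp2b9, chr7:26173159-26173408, plus strand: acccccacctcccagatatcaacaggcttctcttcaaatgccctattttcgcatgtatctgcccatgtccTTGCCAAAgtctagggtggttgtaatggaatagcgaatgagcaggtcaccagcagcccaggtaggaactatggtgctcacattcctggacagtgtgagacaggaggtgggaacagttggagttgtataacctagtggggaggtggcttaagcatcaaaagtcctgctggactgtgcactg
Cyp2b13, chr7:26061245-26061494, plus strand: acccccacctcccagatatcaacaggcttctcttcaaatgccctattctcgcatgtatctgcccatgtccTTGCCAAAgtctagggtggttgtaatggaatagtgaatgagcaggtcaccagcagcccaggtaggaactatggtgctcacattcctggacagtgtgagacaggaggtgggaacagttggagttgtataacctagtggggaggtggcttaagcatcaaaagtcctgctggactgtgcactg
Both held TTGCCAAA at the same place and no TATAAA.

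On chromosome 19, *Cyp2c40*, *Cyp2c67*, *Cyp2c68* and *Cyp2c69* are 92.2 to 97.7% identical in coding sequence but differed in sex bias. *Cyp2c69* (ENSMUSG00000092008, chromosome 19, 39842814 to 39886799 on the minus strand) was 3.31, 0.954 and 2.64 TPM in WT males, 2.43, 4.20 and 3.29 TPM in KO males, 1299.9, 1699 and 1355 TPM in WT females and 3.97, 1.88 and 8.33 TPM in KO females. It was high in WT females alone, and KO females were at the level of the males. Its difference in females, -8.14 (SE 0.38, limma adjusted p = 1.13e-08), was the largest of the 34 members, and the male difference was 0.44 (limma adjusted p = 0.345).

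*Cyp2c40*, an arachidonic acid hydroxylase, had the same shape, with 15.1, 2.32 and 8.495 TPM in WT males, 13.9, 15.96 and 10.03 TPM in KO males, 573, 774 and 827 TPM in WT females and 13.7, 19.02 and 28.3 TPM in KO females. It fell in females by 5.13 on the log2 scale (limma adjusted p = 3.69e-06), while males differed by 0.82 (limma adjusted p = 0.145). Its call over both sexes (-2.15, limma adjusted p = 0.0499) lay at the threshold and was lost without any female library, for example without WT female replicate 3 (-1.78, limma adjusted p = 0.114). *Cyp2c68* was 292, 136 and 209 TPM in WT males, 209, 188 and 197 TPM in KO males, 566, 663 and 679 TPM in WT females and 223, 285 and 298 TPM in KO females. It differed by -1.25 (limma adjusted p = 0.00109) in females and by -0.03 in males. In contrast *Cyp2c67*, described above, was called higher in WT males (0.91, limma adjusted p = 0.0459) and fell in both sexes, although that sex difference was lost without any of 8 single libraries, WT male replicate 1 among them (0.65, limma adjusted p = 0.142).

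Summed, *Cyp2c67*, *Cyp2c68* and *Cyp2c69* were 755, 371 and 523 TPM in WT males, 278, 292 and 285 TPM in KO males, 2022, 2542 and 2211 TPM in WT females and 285, 379 and 372 TPM in KO females. The sum fell in both sexes, by 0.88 in males and 2.71 in females on the log2 scale, with an interaction of 1.83 (limma adjusted p = 0.011). The upstream windows of this group are shown because all 4 hold CAAAGTCCA although their sex bias differed. The annotated starts differ among the 4 genes, so the windows are offset.
Cyp2c40, chr19:39812815-39813064, minus strand: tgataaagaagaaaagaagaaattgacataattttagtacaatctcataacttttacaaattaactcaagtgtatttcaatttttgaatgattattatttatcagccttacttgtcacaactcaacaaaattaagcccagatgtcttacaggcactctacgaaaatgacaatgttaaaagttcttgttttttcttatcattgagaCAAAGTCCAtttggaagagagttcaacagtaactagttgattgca
Cyp2c67, chr19:39649043-39649292, minus strand: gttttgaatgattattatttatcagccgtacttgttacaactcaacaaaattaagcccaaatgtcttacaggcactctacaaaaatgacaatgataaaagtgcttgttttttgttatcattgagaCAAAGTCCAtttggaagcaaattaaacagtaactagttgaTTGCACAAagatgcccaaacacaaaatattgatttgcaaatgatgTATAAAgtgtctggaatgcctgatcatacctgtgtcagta
Cyp2c68, chr19:39741102-39741351, minus strand: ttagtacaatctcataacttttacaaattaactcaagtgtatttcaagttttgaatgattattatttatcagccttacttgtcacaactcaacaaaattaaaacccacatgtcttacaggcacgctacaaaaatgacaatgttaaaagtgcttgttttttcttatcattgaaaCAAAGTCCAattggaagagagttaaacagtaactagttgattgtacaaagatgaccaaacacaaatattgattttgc
Cyp2c69, chr19:39886770-39887019, minus strand: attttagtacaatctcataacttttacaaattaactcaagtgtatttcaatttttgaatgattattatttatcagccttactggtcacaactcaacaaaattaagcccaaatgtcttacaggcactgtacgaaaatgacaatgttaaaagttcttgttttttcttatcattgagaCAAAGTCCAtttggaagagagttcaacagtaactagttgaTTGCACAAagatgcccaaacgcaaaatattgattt
CAAAGTCCA was found in 6 of the 40 members with a window, the others being *Cyp2c65* and *Cyp2c70*, and in 0.384% of all 32851 windows of the table, each the 250 bases before a start, searched on both strands. A window shared by recent duplication counts once for each copy. *Cyp2c70*, with the same letters, was not called in either sex.

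Searched the same way, TATAAA was in 18 of the 40 members (45%) and in 12.4% of all windows, TTGCNNAA in 12 (30%) and 9.56%, CCAAT in 15 (37.5%) and 33.8%, and CATTCC, the pattern of the TEAD factors that YAP1 works with, in 8 (20%) and 12.6%. Of the windows printed above, those of *Cyp2b9*, *Cyp2b13* and *Cyp2c67* held CATTCC, which is not capitalised there. TGTTTAC, a FOXA pattern, was in 3 members (7.5%) and 3.17% of windows, and TTCNNNGAA, a STAT pattern, in 2 (5%) and 7.02%. A pair of AGGTCA copies with 1 base between them, the pattern of nuclear receptor dimers, was in 0 members and 0.0335% of windows, and the HNF1 pattern in 0 members and 0.00913%. A match is a description of letters and not a site of binding.

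*Cyp2a22*, *Cyp2c38*, *Cyp2c39* and *Cyp2g1* were other female-biased members called in the interaction. *Cyp2a22* was 2.28, 0.544 and 0.298 TPM in WT males, 9.83, 5.61 and 6.45 TPM in KO males, 102, 61.02 and 48.3 TPM in WT females and 12.5, 14.9 and 13.1 TPM in KO females. The KO sexes lay between the WT sexes, after a rise of 2.11 (limma adjusted p = 0.000382) in males and a difference of -2.24 (limma adjusted p = 0.00031) in females. *Cyp2a22* is 97.0% identical to *Cyp2a12*, whose level was over 6 times that of *Cyp2a22* in every liver, and the sum of the pair was not called in any of the 6 comparisons.

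*Cyp2c39*, a retinoic acid hydroxylase, was 0.853, 0.897 and 0.379 TPM in WT males, 3.10, 3.48 and 3.47 TPM in KO males, 8.01, 11.1 and 11.4 TPM in WT females and 2.30, 3.77 and 2.83 TPM in KO females. It rose by 1.36 (limma adjusted p = 0.000165) in males and fell by 1.49 on the log2 scale in females (limma adjusted p = 0.000105). *Cyp2c38*, its close relative, was 7.09 ± 3.21 TPM in WT males, 14.3 ± 2.30 TPM in KO males, 62.7 ± 13.8 TPM in WT females and 16.2 ± 5.88 TPM in KO females (SD, n = 3). Its male rise of 0.99 (limma adjusted p = 0.0211) was lost without WT male replicate 2 (0.64, limma adjusted p = 0.089) or KO male replicate 2 (0.87, limma adjusted p = 0.0689). *Cyp2g1*, best known from the olfactory mucosa, was 10.1, 14.9 and 18.7 TPM in WT females and at most 2.26 TPM in the other groups, with a difference of -3.02 (limma adjusted p = 2.79e-05) in females.

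*Cyp2d9* (ENSMUSG00000068086, chromosome 15, 82433437 to 82456845 on the plus strand), the male-specific testosterone 16-alpha-hydroxylase, was the mirror image. It was 1448, 1425 and 1674 TPM in WT males, 190.2, 251 and 288 TPM in KO males, 23.8, 20.3 and 50.4 TPM in WT females and 164, 99.5 and 116 TPM in KO females. The KO males were far below the WT males, and the KO females were above the WT females. The mean was 6.23-fold lower in KO males and 4.01-fold higher in KO females, log2 differences of -2.65 and 2.05 (limma adjusted p = 2.09e-05 and 0.000193), with an interaction of -4.70 (SE 0.41, limma adjusted p = 3.05e-05). *Cyp2d9* is 92.1 to 93.3% identical in coding sequence to *Cyp2d10*, *Cyp2d11* and *Cyp2d12*, so reads may have been shared. Summed with these and *Cyp2d34*, as grouped at 90% identity, it fell in males (-1.19, limma adjusted p = 3.52e-05). In females the sum overlapped between genotypes and was not called (-0.0145, limma adjusted p = 0.95), so the female rise was seen in *Cyp2d9* alone and not in the pooled level.

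*Cyp2u1*, a fatty acid hydroxylase, was 9.86, 12.8 and 22.05 TPM in WT males, 1.59, 2.84 and 3.54 TPM in KO males, 2.76, 2.44 and 4.67 TPM in WT females and 3.76, 2.75 and 3.78 TPM in KO females. WT males were above all other groups, and the difference in males was -2.08 (SE 0.29, limma adjusted p = 0.000148). Its call over both sexes (-1.01, limma adjusted p = 0.0289) was lost without WT male replicate 3 (-0.75, limma adjusted p = 0.0629) and without any of 4 other males. The interaction calls of *Cyp2u1*, *Cyp2g1* and *Cyp2c54* were each lost without KO male replicate 1 (limma adjusted p = 0.0823, 0.0725 and 0.0935), among other libraries, and without the filter on low values. That of *Cyp2g1* was also lost with a pseudocount of 0.1 (2.70, limma adjusted p = 0.442).

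Across the 18 members called between the sexes in WT, the median absolute sex difference was 2.86 in WT and 0.50 in KO on the log2 scale, and it was smaller in KO for all 18. The same held for 98.9% of the 705 genes called between the sexes in WT. Since these genes were picked for their difference in WT, a smaller value in KO is partly the result of that choice, and the interaction given above is the test. Both KO sex means lay between the WT male and WT female means for 10 of the 18 members (55.6%) and for 34.6% of the 705 genes. Of the 8 members called lower within both sexes, *Cyp2c37* and *Cyp2c54* were called higher in WT females (-1.88 and -0.87, male minus female) and *Cyp2c67* higher in WT males (0.91). The call of *Cyp2c54* was lost after rescaling (-0.66, limma adjusted p = 0.072), without the filter on low values, with the covariate for the early animal numbers, and without WT male replicate 2, KO male replicate 1 or any WT female (limma adjusted p from 0.0525 to 0.141). The other 5 were not called between the WT sexes, *Cyp2e1*, *Cyp2c50* and *Cyp2c29* among them (-0.44, -0.16 and 0.13).

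**Figure D4:**
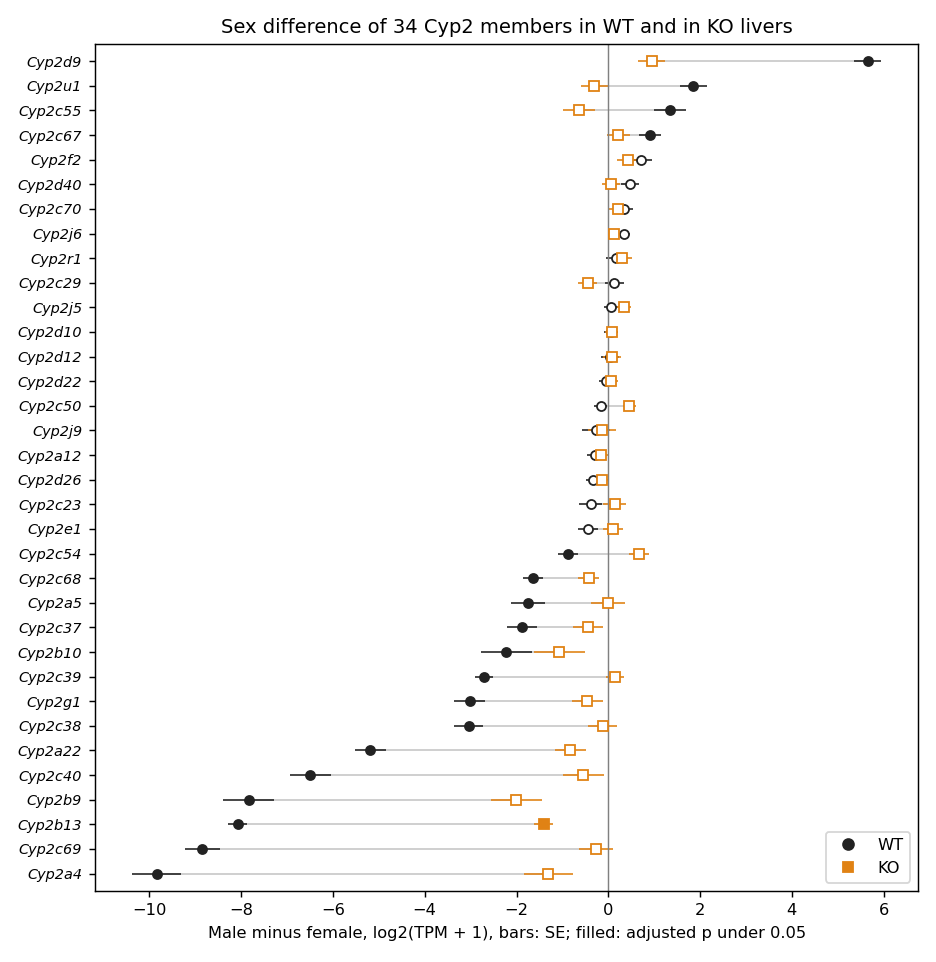
Male minus female difference of the 34 tested members in WT (circles) and KO (squares) livers on the log2(TPM + 1) scale, with bars for the SE and filled symbols for an adjusted p under 0.05. In WT the members spread from -9.84 for Cyp2a4 to 5.65 for Cyp2d9, while in KO they lie between -2.0 and 0.95.

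A list of 30 genes that serve or regulate these enzymes was read alongside. Over both sexes 8 of the 30 were called higher and 3 lower, beside 50.1% and 4.82% of all tested genes, with a median log2 difference of -0.15. After rescaling 3 were higher and 16 lower, beside 21.3% and 18.0%. Among the genes for electron transfer and haem, 2 of 8 were called higher and 0 lower over both sexes on the deposited scale. Rescaling left 1 higher (*Hmox1*) and made 5 lower (*Alas1*, *Cyb5b*, *Fech*, *Pgrmc1* and *Cyb5a*). Haem oxygenase *Hmox1*, which breaks haem down, was 9.82, 13.9 and 14.05 TPM in WT males, 56.7, 61.9 and 59.4 TPM in KO males, 19.04, 14.4 and 19.1 TPM in WT females and 70.5, 52.2 and 53.8 TPM in KO females. It was higher in every KO liver, by a log2 difference of 1.93 (SE 0.14, limma adjusted p = 1.37e-07). *Por*, the electron donor of all these P450s, was 100.2, 67.4 and 212 TPM in WT males, 266, 345 and 203 TPM in KO males, 348, 399.6 and 272 TPM in WT females and 183, 256 and 393 TPM in KO females, and was called higher in KO males only on the deposited scale (1.22, limma adjusted p = 0.0183).

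Of 10 xenobiotic and nuclear receptor genes, *Ahr* (0.99), *Arnt* (0.78) and *Nr1i2* (0.65) were called higher and *Ppara* (-1.27) lower over both sexes, the call of *Nr1i2* being lost after rescaling (0.20). On the rescaled values 2 of the 10 were called higher and 6 lower. *Ppara*, the fatty acid sensor, was 22.4, 36.9 and 55.2 TPM in WT males, 12.5, 20.9 and 15.2 TPM in KO males, 31.8, 51.7 and 36.5 TPM in WT females and 10.6, 14.8 and 17.8 TPM in KO females, lower in KO within each sex. *Nr1i3* was 32.5, 22.6 and 101 TPM in WT males, 42.9, 50.97 and 33.5 TPM in KO males, 226, 240.1 and 102 TPM in WT females and 41.8, 30.6 and 55.2 TPM in KO females, a difference of -2.07 (limma adjusted p = 0.00433) in females and a difference of -0.01 in males. Of the 4 genes for growth hormone action and sex bias, the growth hormone receptor *Ghr* was called lower over both sexes and *Stat5b* higher (0.61), the latter not after rescaling (0.17). *Ghr* was 200.5, 232 and 223 TPM in WT males, 84.1, 91.8 and 115 TPM in KO males, 165, 173 and 208 TPM in WT females and 85.5, 115 and 84.7 TPM in KO females, with all KO livers below all WT livers and a log2 difference of -1.06 (SE 0.12, limma adjusted p = 8.06e-06). The female-biased repressor *Cux2* fell in females by 1.60 on the log2 scale (limma adjusted p = 0.00494), from 5.86, 16.7 and 17.6 TPM to 2.68, 2.32 and 5.68 TPM. The daily rhythm gene *Hlf* was called lower over both sexes (-0.84, limma adjusted p = 0.0106), while *Dbp* (-2.41, limma adjusted p = 0.117) and *Tef* (-1.19, limma adjusted p = 0.0772) were not. In females both *Hlf* (-1.26, limma adjusted p = 0.00828) and *Tef* (-2.14, limma adjusted p = 0.0307) were called lower, and after rescaling *Tef* was called lower over both sexes too (-1.62). The part of these genes in the Cyp2 differences was not tested.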

How the data were processed

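Whole-liver RNA from 12 mice was sequenced, 1 library per mouse with its own animal number. The authors deposited 1 table with TPM per gene and library, and fold change, log fold change and FDR scores of their own comparison, per the file headers. GRCm38 and edgeR are named, with no role, per the submitters' processing notes; the aligner and the counter are not given in the sources used here, so how reads of near-identical genes were assigned is unknown. The number of per-sample columns left unmatched was 0.

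Groups came from the labels. Replicates are numbered in accession order, and the numbers pair nothing. Genes with a mean of at least 0.5 TPM (12278) were fitted as log2(TPM + 1), a scale that understates changes of low genes. The fits used limma 3.58.1 (empirical Bayes with trend, two-sided) in R 4.3.3. P-values were adjusted by Benjamini-Hochberg over all of these genes. KO against WT over both sexes came from a model of genotype and sex without their interaction. A genotype difference that depends on sex therefore adds to the residual spread of that model and widens its SE. KO against WT within each sex, male against female within each genotype, and the interaction came from 1 model of 4 groups. In simulated data for KO against WT over both sexes, 100 of the 12278 genes were changed by a log2 of 1 and 100 by 2. Of these, 96% and 98% were recovered, with 2.02% of calls false. Recovery was not tested separately for genes at low levels, within a sex, between the sexes or in the interaction. Tables and figures used Python 3.11.15, pandas 2.3.3, numpy 2.4.6, Biopython 1.88 and matplotlib 3.10.9.

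Near-identical members were grouped at a coding-sequence identity of at least 95% (alternative 90%) from GENCODE mouse release M21 transcripts, a departure from the planned protein identity, which was not analysed here. Of the 48 members, 40 were matched by symbol in the RefSeq promoter table. Alternatives were a pseudocount of 0.1, no filter, median-of-ratios rescaling, rescaling without the Mup genes, no intensity trend, a covariate for the early animal numbers, fits within a sex, summed near-identical genes, and leaving out each library.

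The members and lists were chosen with earlier results of these data known. Members were named by rule: the most abundant of each subfamily, up to 10 called members per direction by size in KO against WT, all members called in the interaction or between the KO sexes, the 5 largest sex differences in WT per direction, and 10 members of known role; from the 30 partner genes, up to 5 per direction. The other members were added after their values were seen, so that each is accounted for, as were Por, Nr1i3, Cux2, Dbp and Tef.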

Additional observations from a re-analysis of the deposited data

Results flagged for a closer look

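In 12 members the genotype difference of males was not the same as that of females, by the limma test of the interaction (male difference minus female difference on the log2(TPM + 1) scale, adjusted p under 0.05). The value was positive for *Cyp2a4* (8.53), *Cyp2a22* (4.35), *Cyp2b9* (5.84), *Cyp2b13* (6.67), *Cyp2c38* (2.92), *Cyp2c39* (2.86), *Cyp2c40* (5.95), *Cyp2c54* (1.54), *Cyp2c69* (8.58) and *Cyp2g1* (2.57), and negative for *Cyp2d9* (-4.70) and *Cyp2u1* (-2.16). In *Cyp2c54* both sexes fell, females more than males, but the interaction of its sum with the near-identical *Cyp2c37* and *Cyp2c50* was not called (1.10, limma adjusted p = 0.0596). The sums of *Cyp2a4* with *Cyp2a5* (2.59, limma adjusted p = 0.0688) and of *Cyp2a22* with *Cyp2a12* (0.26, limma adjusted p = 0.771) were not called either. The calls of *Cyp2c54*, *Cyp2g1* and *Cyp2u1* were lost without the filter on low values, and that of *Cyp2g1* also with a pseudocount of 0.1. In the other positive members with a call in females, that fall was paired with a rise or with no called change in males.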

How the results depend on the processing

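Of 125 single-gene results, 80 kept their direction and their side of the threshold under every alternative run. These include the falls of *Cyp2e1*, *Cyp2f2*, *Cyp2c29*, *Cyp2c37*, *Cyp2c50*, *Cyp2c54*, *Cyp2c67* and *Cyp2d40* and the rise of *Cyp2c55* over both sexes and within each sex. For the changes below the cause was not tested, except that summing leaves fewer members to count.

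After median-of-ratios rescaling, the members called higher went from 9 to 5 in males and from 4 to 2 in females (also 2 without the Mup genes). The log2 ratio of the KO to the WT summed level became -1.75 for *Cyp2c*, -0.98 for *Cyp2d*, -2.63 for *Cyp2e*, -3.93 for *Cyp2f*, -0.87 for *Cyp2j*, -2.11 for *Cyp2u*, -1.70 for all members and, reversed, -0.35 for *Cyp2r*. Rescaling also reversed *Cyp2a5* (-0.25), *Cyp2c70* (-0.32), *Cyp2j6* (-0.12) and *Cyp2r1* (-0.30) over both sexes, *Cyp2c70* (-0.50), *Cyp2j6* (-0.33) and *Cyp2r1* (-0.33) in males, and *Cyp2c70* (-0.15), *Cyp2r1* (-0.27) and *Cyp2u1* (-0.19) in females. Without the Mup genes, *Cyp2r1* over both sexes (-0.000599), *Cyp2c70* in males (-0.13) and *Cyp2r1* in females (-0.0125) reversed. With a pseudocount of 0.1, *Cyp2a22* (0.39), *Cyp2b9* (0.52) and *Cyp2c39* (0.21) reversed over both sexes, none of them called. With near-identical genes at 90% summed, chosen after seeing the data, 4 members or sums were higher in males, 2 higher and 12 lower in females, 7 lower in WT males against females, and 4 positive in the interaction.

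Between the KO sexes the member lower in males became 0 with the pseudocount of 0.1, without the filter and with the 90% sums, and the early-number covariate gave 1 higher and 0 lower. Without the filter, 2 members were higher in WT males and 1 was negative in the interaction.

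Leaving out each library in turn gave 2 to 3 higher and 12 to 17 lower over both sexes, 5 to 9 and 10 to 11 in males, 2 to 4 and 19 to 20 in females, 2 to 5 and 11 to 14 in WT males against females, 0 to 0 and 0 to 2 in KO males against females, and 8 to 11 and 1 to 3 in the interaction. It turned the sign of *Cyp2a22* (-0.42 to 0.31), *Cyp2a5* (-0.038 to 0.47), *Cyp2b9* (-0.77 to 0.15), *Cyp2c39* (-0.29 to 0.15) and *Cyp2d9* (-0.67 to 0.036) over both sexes, of *Cyp2a12* (-0.24 to 0.13), *Cyp2b10* (-1.17 to 0.023), *Cyp2c70* (-0.15 to 0.21) and *Cyp2d26* (-0.16 to 0.024) in males, and of *Cyp2r1* (-0.20 to 0.26) and *Cyp2u1* (-0.069 to 0.29) in females.

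No paired analysis was possible because the labels give the animals no shared replicate number. With 3 livers per group, a difference near the spread between livers is not resolved, and for members under about 1 TPM a few reads decide the value. TPM is a share, so an amount per cell was not measured.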

Other observations

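Genes of the daily clock output differed among livers of the same group, beside some Cyp2 members known to be rhythmic. *Dbp*, a factor with a strong daily rhythm, was 0.745, 1.15 and 206 TPM in WT males, 1.91, 46.00 and 1.31 TPM in KO males, 189, 213 and 175 TPM in WT females and 10.6, 0.960 and 33.4 TPM in KO females. It was high in WT male replicate 3 and in all 3 WT females, and low in the other WT males and most KO livers. WT male replicate 3 was also the WT male with the highest *Cyp2a5* (921 TPM), *Cyp2a4* (2.60 TPM), *Por* (212 TPM) and *Nr1i3* (101 TPM). The labels used here give no time of collection, and the part of the rhythm in the Cyp2 differences was not tested.

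The authors' deposited table gives its own comparison of KO with WT for 39 of the 48 members, with 3 higher and 15 lower at an FDR printed under 0.05. In the authors' deposited table *Cyp2e1* has a log2 fold change of -2.62, *Cyp2f2* of -4.05 and *Cyp2c55* of 2.33. For members that went opposite ways in the sexes, the authors' deposited table lists 1 value under a heading that names the genotypes but no sex, 7.14 for *Cyp2a4*, 3.57 for *Cyp2b13*, 1.46 for *Cyp2b9* and -2.94 for *Cyp2d9*. In 6 of the 7 members called in opposite directions in males and females, the sign in the authors' deposited table was that of the male difference. *Cyp2b13*, higher in KO in the authors' deposited table, was called lower over both sexes in the limma fit above. Which livers entered the authors' comparison is not given in the sources used here.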
